A study of Mus musculus with 12 samples.

Results

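Local irradiation of a tumor reaches both the cancer cells and the white blood cells inside it. The question addressed here is which protein-coding genes, pathways and myeloid lineages differed in level between CD11b+ myeloid cells of irradiated and of unirradiated MC38 tumors, a mouse colon carcinoma model, in the RNA that had not been immunoprecipitated. The members are the 6 Input libraries among the 12 libraries of a YTHDF2 RNA immunoprecipitation experiment, chosen by their labels as the 3 IR Input and the 3 Ctrl Input libraries, and the immunoprecipitated libraries were not used. The IR group came from tumors given a single 20 Gy dose, with the cells collected 3 days later, and the Ctrl group from tumors that were not irradiated. All mice were wild-type for the study's purposes, carrying floxed but intact Ythdf2 alleles (Ythdf2 f/f) on the C57BL/6J background, and they were of both sexes and 8 to 10 weeks old. Each library was made from cells of several pooled mice, and the study's methods call the 3 libraries of a condition technical replicates, so the p-values measure only the spread between these libraries, which may be technical. CD11b, the integrin alpha M chain encoded by Itgam, is carried by neutrophils, monocytes, macrophages and some dendritic cells, so each library is a mixture. In such a mixture, fewer cells of a type and less RNA of a gene per cell cannot be told apart.

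The Ctrl libraries held 34445784 to 40008607 counts on genes and the IR libraries 37940948 to 42382532. A gene was tested when it had at least 10 counts in at least 3 of the 6 libraries, which left 16914 genes. Levels are given as CPM, the usual depth-scaled count, after edgeR's TMM scaling, and differences as log2 fold changes of IR over Ctrl with their standard errors (SE). A gene was called when its edgeR quasi-likelihood p, adjusted by Benjamini-Hochberg over all tested genes, was under 0.05. The first principal component held 56.9% of the variance and separated the 3 IR from the 3 Ctrl libraries. Of all tested genes, 3557 (21%) were called higher and 4047 (23.9%) lower in the IR libraries. Of the 12784 protein-coding genes of the nuclear genome outside the Hist genes, 2970 (23.2%) were called higher and 3424 (26.8%) lower. Most of these differences were small, since only 238 coding genes (1.86%) were called at least 2-fold higher and 202 (1.58%) at least 2-fold lower. These shares are the background against which every list count below is read. They varied with exon length, as described below for coding genes with a mean count of at least 100. Among the shortest 50.9% were higher and 8.5% lower, and among the longest 16.3% were higher and 54.8% lower. Lists of short genes should be read with that in mind.

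The CD11b+ label was checked against defining markers. All 10 pan-myeloid markers were detected, with Lyz2, encoding lysozyme, at 2455 to 2531 CPM in the 6 libraries and Cybb, encoding the phagocyte oxidase, at 1552 to 1644 CPM. Itgam itself stood at 963, 952 and 951 CPM in the Ctrl libraries and at 1667, 1621 and 1651 CPM in the IR libraries. The log2 fold change was 0.79 (SE 0.025, edgeR adjusted p = 6.2e-19). Gm49368 overlaps Itgam on the same strand, so the counting of reads in their shared exons is uncertain. Ptprc, the pan-leukocyte antigen CD45, was at 304 to 359 CPM in all libraries. Of the 10 markers, 5 were called higher, and 2 lower, and without IR library 3 these counts were 3 and 1. Markers of tumor macrophages were uneven. Lpl, Lgals3 and Ctsd were abundant and Mrc1 was at 89.9 to 127 CPM, with the values given below, whereas others of the same list were low or absent. C1qa, a subunit of complement C1q, was at 1.29 to 2.70 CPM, Arg1, encoding arginase, at 0.0742 to 0.874 CPM, and Retnla had no count in any library. Folr2 and Cd163, which mark resident and scavenging macrophages, were under the filter. Genes of granulocyte precursors (Mpo, Elane), of cycling cells (Mki67) and of mature dendritic cells (Ccl22) were abundant at the same time, as described below. The paper reports high Arg1 in most clusters of Ly6C-high cells sorted from these tumors, a narrower sort measured in single cells. Whether the cells behind the Input libraries differ from those their label names was not tested.

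The shares of RNA other than mRNA also differed between the groups. Mitochondrial ribosomal RNA took 2.76 to 2.95% of the counts in the Ctrl libraries and 0.760 to 0.789% in the IR libraries. Small non-coding RNA took 4.05 to 4.25% against 0.614 to 0.657%. Most of that share was a single gene, Gm23935, at 3.77 to 3.98% against 0.546 to 0.587%. The labels name an mRNA isolation before library making. The study's methods instead describe total RNA taken from the Input, and the kit used is one for total RNA. Protein-coding genes took 88.1 to 88.4% of the counts in the Ctrl libraries and 92.8 to 93.0% in the IR libraries. Called genes among the small RNA classes were mostly lower, as for snoRNA genes, of which 24 of 74 were lower and 2 higher. The part of this difference in the results below was not tested. Each list count was also computed with coding genes alone, but that uses the same libraries and cannot show this part.

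p53 is a transcription factor that is stabilised when DNA is broken and then switches on genes for cell cycle arrest, cell death, repair and its own control. Mdm2 encodes the ubiquitin ligase that degrades p53, and Cdkn1a encodes p21, an inhibitor of the kinases that drive cells into S phase. The p53 targets were the gene list with the largest rise. Of its 35 members, all tested, 30 were called higher, 1 was lower and 4 were not called, and 19 were at least 2-fold higher. The median log2 fold change was 1.15, beside -0.01 over all coding genes. With coding genes alone the counts were again 30 higher and 1 lower.

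Cdkn1a (ENSMUSG00000023067, chromosome 17, 29090976 to 29100727 on the plus strand of GRCm38) stood at 342, 350 and 346 CPM in the Ctrl libraries and at 1018, 1022 and 1010 CPM in the IR libraries. The 3 values of each group lay close together and the groups were far apart. The log2 fold change was 1.56 (SE 0.028, edgeR adjusted p = 8.1e-25), or 2.94-fold. Mdm2 (ENSMUSG00000020184, chromosome 10, 117688875 to 117710758 on the minus strand) rose from 220, 214 and 225 CPM to 577, 582 and 595 CPM, a log2 fold change of 1.41 (SE 0.031, edgeR adjusted p = 1.1e-22). Per kilobase of exon, Cdkn1a had the higher level of the pair in both groups, with 97.3 CPM per kb against 43.2 in the Ctrl libraries and 286 against 115 in the IR libraries. A gene on the opposite strand, AC167363.2, overlaps Cdkn1a, and the strand setting of the counting is not given in the sources used here.

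**Figure D1:**
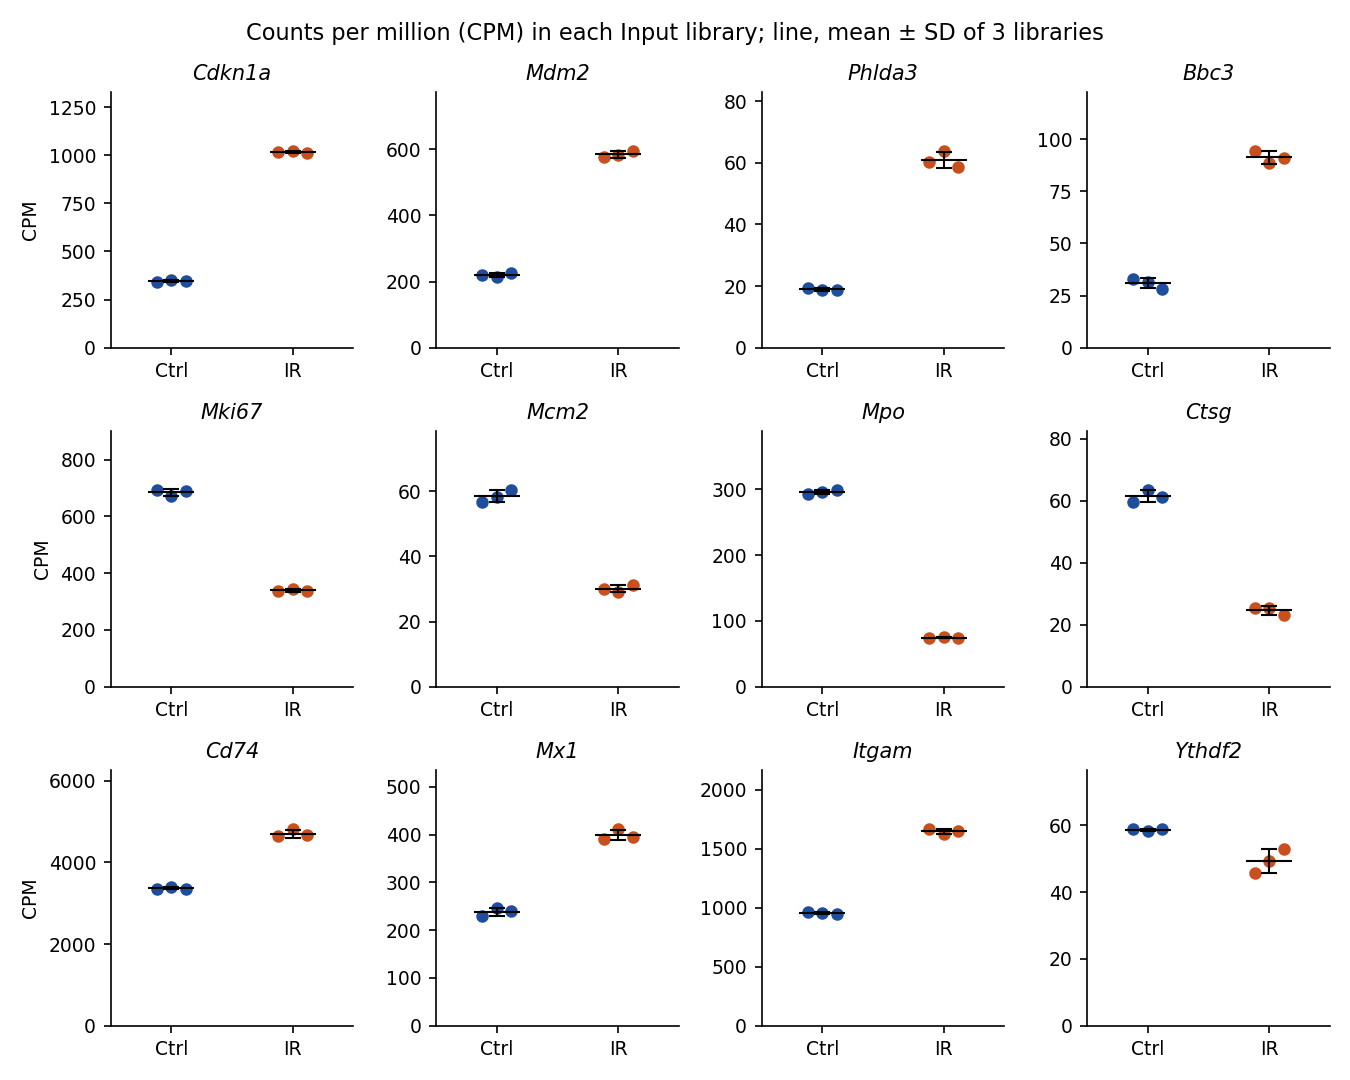
Level of 12 genes in each Input library. Each panel plots CPM from 0 for the 3 Ctrl and the 3 IR libraries as points, with a line and bars for the mean ± SD of 3 libraries. Cdkn1a and Mdm2 are separated widely upward and Mpo, Ctsg, Mki67 and Mcm2 downward, whereas Ythdf2 shifts only from 58.7 to 49.3 CPM on average.

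The promoter of Cdkn1a is shown because this gene had the largest rise in CPM among the p53 targets and its upstream start region holds matches to the p53 half-site. The sequence is from RefSeq on GRCm38.p6 and covers chr17:29090729-29090978 on the plus strand, the 250 bases before the upstream of the 2 RefSeq starts. Capitals mark the 2 half-site matches, which lie at positions -73 to -64 and -51 to -42 from that start and read as matches on both strands.
Cdkn1a: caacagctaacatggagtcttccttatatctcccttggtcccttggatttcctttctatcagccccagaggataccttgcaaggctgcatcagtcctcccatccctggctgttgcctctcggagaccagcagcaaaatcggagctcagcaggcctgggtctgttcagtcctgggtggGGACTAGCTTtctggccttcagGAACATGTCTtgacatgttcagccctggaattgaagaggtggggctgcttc
Half-site matches were searched on both strands in the 300-base windows from 250 bases before to 50 bases after each RefSeq start. Of the 27 p53 targets with a window, 9 (33.3%) held at least 1 half-site, among them Cdkn1a, Mdm2, Bax, Ccng1, Aen and Polk, beside 829 of 10113 tested coding genes (8.2%). The full p53 response element, searched first as a pair of exact half-sites with a gap of at most 1 base, was in a window of 0 of the 27 and of 1 of the 10113. That search allowed no mismatch, so it does not show that a gene lacks the element. In Cdkn1a the stretch tgacatgttc, directly after the second match, departs from the half-site only at its first base. The half-site was added to the search after the results were known.

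Arrest and feedback genes of the list moved with Cdkn1a and Mdm2. Ccng1, encoding cyclin G1, rose from 168, 167 and 178 CPM to 393, 426 and 415 CPM (log2 1.27, SE 0.036). Btg2, an antiproliferative factor, rose from 95.9, 90.5 and 92.5 CPM to 165, 170 and 169 CPM (log2 0.86, SE 0.037). Trp53inp1, a p53 cofactor and autophagy protein, went from 70.9, 63.8 and 63.0 CPM to 226, 220 and 219 CPM (log2 1.75, SE 0.042). Psrc1, a microtubule-binding protein, went from 33.0 to 36.1 CPM up to 104 to 106 CPM (log2 1.60, SE 0.046). Plk3, a stress kinase, did not pass the test, with 46.4 to 51.1 CPM in the Ctrl and 49.4 to 52.4 CPM in the IR libraries.

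The cell death genes among the p53 targets rose by different amounts. Perp, encoding a membrane protein of apoptosis and desmosomes, rose from 23.7, 27.5 and 23.5 CPM to 91.5, 90.5 and 91.0 CPM (log2 1.87, SE 0.055, edgeR adjusted p = 7.9e-20). Phlda3, an inhibitor of AKT, rose from 19.5, 18.6 and 18.8 CPM to 60.1, 63.9 and 58.8 CPM (log2 1.69, SE 0.058). Bbc3, encoding the BH3-only protein PUMA, rose from 33.0, 31.5 and 28.3 CPM to 94.3, 88.4 and 91.0 CPM (log2 1.56, SE 0.053). Pidd1, which nucleates the PIDDosome, rose by 1.45 (SE 0.055) and Tnfrsf10b, the TRAIL death receptor, by 1.28 (SE 0.11). Bax, the pore-forming effector, rose less, from 87.5, 84.8 and 90.4 CPM to 170, 171 and 167 CPM (log2 0.95, SE 0.038). Fas, the death receptor, and Pmaip1, encoding NOXA, rose by only 0.33 (SE 0.052) and 0.30 (SE 0.049).

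Repair and metabolic p53 targets were the most mixed. Ercc5, a nuclease of nucleotide excision repair, rose by 1.20 (SE 0.047), and Polk, a translesion polymerase, by 0.82 (SE 0.076). Ddb2, a sensor of damaged bases, rose by 0.40 (SE 0.070), whereas Xpc, its partner in damage recognition, was at 50.5 to 56.7 CPM in the Ctrl and 48.1 to 52.0 CPM in the IR libraries and was not called. Rrm2b, a ribonucleotide reductase subunit, was the only member called lower, from 8.85, 9.44 and 8.19 CPM to 5.55, 7.04 and 5.81 CPM (log2 -0.53, SE 0.13, edgeR adjusted p = 0.0011). Without Ctrl library 2, 2 members were lower. Dcxr and Ephx1, enzymes of carbonyl and epoxide metabolism, rose by 1.66 (SE 0.070) and 1.15 (SE 0.063), and Tigar, a regulator of glycolysis, was not called (log2 -0.02, SE 0.069). Trp53 itself was at 44.1, 50.2 and 47.2 CPM in the Ctrl and 41.7, 45.1 and 40.2 CPM in the IR libraries, ranges that overlapped, with a call of lower (log2 -0.16, SE 0.058, edgeR adjusted p = 0.028).

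**Figure D2:**
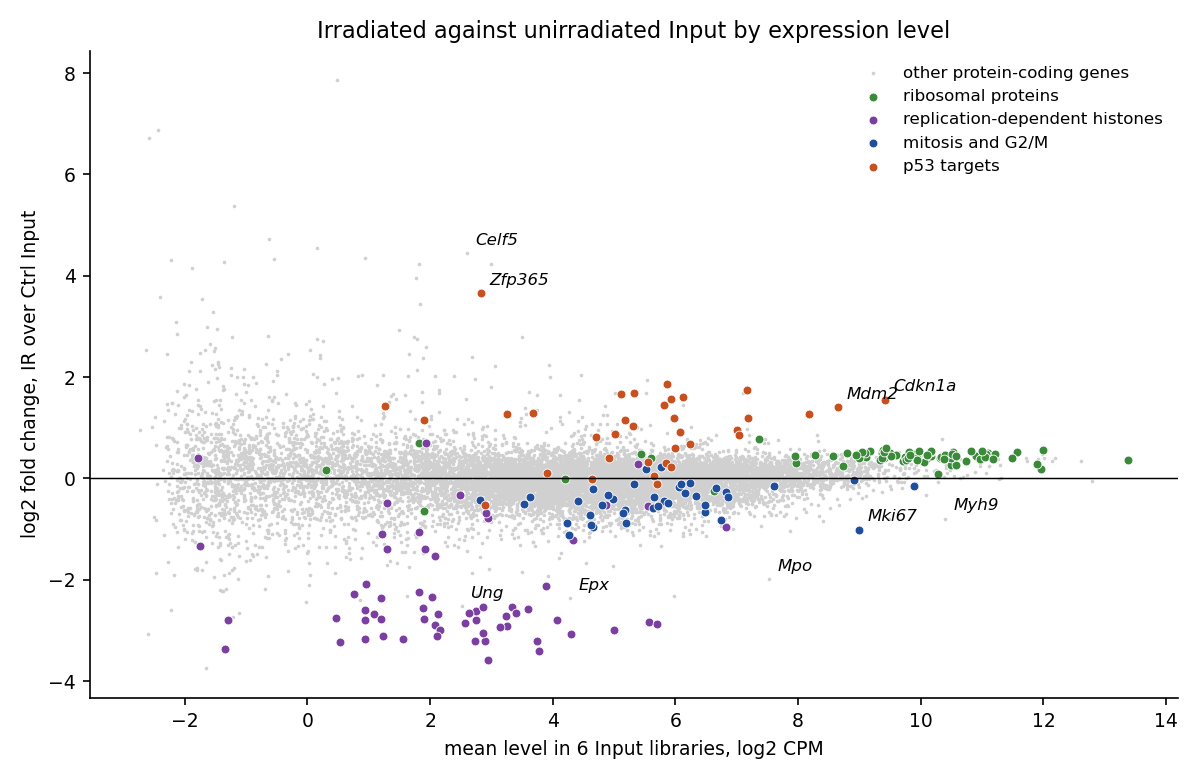
Log2 fold change of IR over Ctrl against the mean level in the 6 Input libraries on a log2 CPM scale. Each point is a protein-coding gene, with p53 targets, mitosis genes, ribosomal proteins and replication-dependent histones in color. The p53 targets reach 3.66 for Zfp365 and the histones -3.59 for Hist1h1a, while the ribosomal proteins lie in a band around their median of 0.44.

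The coding genes with the largest rises were mostly near the detection limit in the Ctrl libraries. Celf5, encoding an RNA-binding protein, went from 0.408, 0.571 and 0.594 CPM to 13.1, 10.3 and 11.5 CPM (log2 4.45, SE 0.18). Matn1, encoding the matrix protein matrilin, went from 0.786, 1.04 and 0.569 CPM to 14.6, 14.5 and 16.2 CPM (log2 4.24, SE 0.16). Zfp365, a zinc finger protein and p53 target, went from 1.37, 0.908 and 0.891 CPM to 11.4, 13.8 and 14.4 CPM (log2 3.66, SE 0.17). Ak1, encoding adenylate kinase, went from 3.20, 2.15 and 3.27 CPM to 20.7, 20.0 and 18.8 CPM (log2 2.79, SE 0.13). The other 6 of the 10 largest rises above a mean count of 100 were 9530053A07Rik (4.23), Plb1 (3.96), 1700007K13Rik (3.44), Enho (2.92), Gas6 (2.80), which encodes a ligand of the TAM receptors, and Dnm1 (2.76), encoding a dynamin. Enho, Gas6, Plb1 and Celf5 each overlap a gene on the opposite strand.

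Genes of proliferation moved the other way. Cells copy their DNA in S phase, using the MCM helicase, the replicative polymerases and new histones, and then divide in mitosis using cyclin B, the kinetochore and the mitotic kinases. Of the 45 genes of DNA replication and S phase, none was called higher and 33 were lower, with a median log2 fold change of -0.33. Of the 40 genes of mitosis and G2/M, 34 were lower and 2 were higher, with a median of -0.44. The falls were mostly under 2-fold: none of the S phase genes and 2 of the mitosis genes passed that size. Coding genes alone gave the same counts. The median of coding genes in the same bins of exon length was -0.03 for both lists.

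Mki67, encoding the proliferation antigen Ki-67, fell from 693, 672 and 689 CPM to 336, 346 and 337 CPM (log2 -1.01, SE 0.029, edgeR adjusted p = 5.8e-20). Ccnb1, encoding cyclin B1, fell from 26.7, 27.6 and 24.9 CPM to 12.9, 12.3 and 11.3 CPM (log2 -1.12, SE 0.082). Ccnb2 was at 32.7, 32.6 and 32.8 CPM and then at 14.8, 16.9 and 19.9 CPM (log2 -0.92, SE 0.082). Knl1 of the kinetochore, Anln, the anillin of the cleavage furrow, and Cdc20, an activator of the anaphase-promoting complex, fell by 0.95, 0.92 and 0.89 on the log2 scale. Top2a, the topoisomerase that untangles sister chromatids, did not pass the test at 481 to 497 CPM in the Ctrl and 473 to 489 CPM in the IR libraries. The 2 mitosis genes that rose, Spc25 (log2 0.23, SE 0.055) and Ndc80 (log2 0.19, SE 0.052), encode subunits of one kinetochore complex, whereas Nuf2 of the same complex fell by 0.48 (SE 0.048).

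Among the S phase genes the loading and start of replication led the falls. Mcm2, a subunit of the MCM helicase, went from 56.7, 58.4 and 60.4 CPM to 30.0, 28.9 and 31.1 CPM (log2 -0.96, SE 0.054, edgeR adjusted p = 5.7e-14). All 6 subunits Mcm2 to Mcm7 were called lower, from -0.96 for Mcm2 to -0.33 for Mcm7. Orc1, the largest subunit of the origin recognition complex, went from 5.36, 7.96 and 8.17 CPM to 3.95, 3.44 and 3.44 CPM (log2 -0.99, SE 0.16). Dtl, Uhrf1 and Cdc6, which act in licensing and in copying DNA methylation, fell by 0.92, 0.75 and 0.69 on the log2 scale. Pcna, the sliding clamp, was at 45.5 to 53.5 CPM in the Ctrl and 46.3 to 48.6 CPM in the IR libraries and was not called. Lig1 was not called either (log2 0.03), nor was Pclaf at 111 to 121 CPM.

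Promoters of a pair of mitotic genes and of 1 S phase gene are shown because their lists were mostly called lower and because they hold the letters searched for. Capitals mark TTTGAA and CCAAT in Mki67 and Cdc20, and TTTCGCGC in Orc1. The match in Orc1 and the middle CCAAT of Mki67 lie on the opposite strand, so their letters read as the reverse complement. All are RefSeq sequences on GRCm38.p6, 250 bases up to the start: chr7:135716380-135716629 on the minus strand for Mki67, chr4:118437344-118437593 on the minus strand for Cdc20 and chr4:108579204-108579453 on the plus strand for Orc1.
Mki67: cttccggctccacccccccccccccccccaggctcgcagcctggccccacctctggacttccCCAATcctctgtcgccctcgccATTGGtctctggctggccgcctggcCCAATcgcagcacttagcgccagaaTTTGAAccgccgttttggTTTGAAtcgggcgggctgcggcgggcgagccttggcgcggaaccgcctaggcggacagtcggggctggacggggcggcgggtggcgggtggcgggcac
Cdc20: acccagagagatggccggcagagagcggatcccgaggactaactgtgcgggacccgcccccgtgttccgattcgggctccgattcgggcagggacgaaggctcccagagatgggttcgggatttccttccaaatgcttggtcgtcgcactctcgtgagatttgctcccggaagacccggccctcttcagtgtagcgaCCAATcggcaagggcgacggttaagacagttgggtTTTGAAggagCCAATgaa
Orc1: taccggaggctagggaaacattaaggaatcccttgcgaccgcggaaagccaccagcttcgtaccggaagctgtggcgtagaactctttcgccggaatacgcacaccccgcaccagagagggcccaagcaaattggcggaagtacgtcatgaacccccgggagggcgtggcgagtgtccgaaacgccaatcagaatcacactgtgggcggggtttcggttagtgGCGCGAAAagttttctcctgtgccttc
Both strands of the 300-base windows were searched. TTTGAA was in a window of 25 of the 33 mitosis genes with one (75.8%), beside 14.5% of all tested coding genes, and CCAAT in 26 of 33 (78.8%), beside 43.1%. TTTGGCGC or TTTCGCGC was in 12 of 36 S phase genes (33.3%), beside 1.8% of all. The 2 mitosis genes that rose, Ndc80 and Spc25, also held TTTGAA.

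The replication-dependent histones, made in S phase and ending in a stem-loop in place of a poly(A) tail, had the largest falls of all lists. Of 62 tested members, 56 were lower and 2 higher, and 51 were at least 2-fold lower, beside 3.98% of all tested genes lower and 2.03% higher at that size. The median log2 fold change was -2.67. Hist1h1a, a linker histone, went from 13.4, 14.2 and 15.1 CPM to 1.41, 1.27 and 0.877 CPM (log2 -3.59, SE 0.15, edgeR adjusted p = 2.3e-16). Hist1h2bc, which rose from 35.5, 40.5 and 37.1 CPM to 45.8, 50.2 and 42.6 CPM (log2 0.29, SE 0.063), and Hist3h2a (log2 0.69, SE 0.17) were the exceptions. All replication-dependent histones together took 0.105% of the counts in the Ctrl and 0.0323% in the IR libraries. Slbp, which binds the histone stem-loop, fell by 0.44 (SE 0.063). The median fall of the histones exceeded the largest fall among the S phase genes. It came with the lower shares of mitochondrial ribosomal and small non-coding RNA given above, whose part in it was not tested. Histone genes are near-identical copies, so how reads were divided among them is uncertain.

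DNA repair genes outside the p53 targets were more often lower than higher. Of 48 genes of damage signalling and repair, 24 were lower and 4 higher, with a median of -0.28. Ung, the uracil glycosylase that starts base excision repair, had the largest log2 fall among coding genes outside the Hist genes with a mean count of 100 or more, from 10.4, 8.07 and 10.8 CPM to 1.16, 1.75 and 2.18 CPM (log2 -2.52, SE 0.18, edgeR adjusted p = 8.2e-12). Atm, the kinase that senses double-strand breaks, fell from 16.2, 16.1 and 15.1 CPM to 6.71, 5.72 and 6.62 CPM (log2 -1.31, SE 0.10). Bard1, Chek1 and Xrcc6, encoding the BRCA1 partner, the replication checkpoint kinase and Ku70, fell by 0.81, 0.74 and 0.71 on the log2 scale. H2afx, the histone phosphorylated at breaks, fell from 142, 145 and 144 CPM to 100, 94.8 and 95.2 CPM (log2 -0.57, SE 0.038). The 4 that rose were Chek2 (0.50, SE 0.077), which encodes a checkpoint kinase under ATM, Xpa (0.33), Ercc4 (0.26) and Polb (0.23). Atr, Rad50 and Rnf168 were not called.

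The BCL2 family, which sets the threshold for mitochondrial death, was divided, with 8 of 13 tested members higher and 4 lower. Bcl2l11, encoding the BH3-only protein BIM, rose from 50.3, 53.7 and 48.6 CPM to 75.3, 72.4 and 69.9 CPM (log2 0.51, SE 0.049). Survival members rose as well: Bcl2a1b by 0.51 (SE 0.052), Mcl1 from 553, 585 and 565 CPM to 668, 693 and 673 CPM (log2 0.26, SE 0.030) and Bcl2l1 by 0.22 (SE 0.039). The Bcl2a1 genes are close copies, so their separate values are uncertain. Bcl2 fell by 0.26 (SE 0.064) and Bcl2l13 by 0.35 (SE 0.074).

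**Figure D3:**
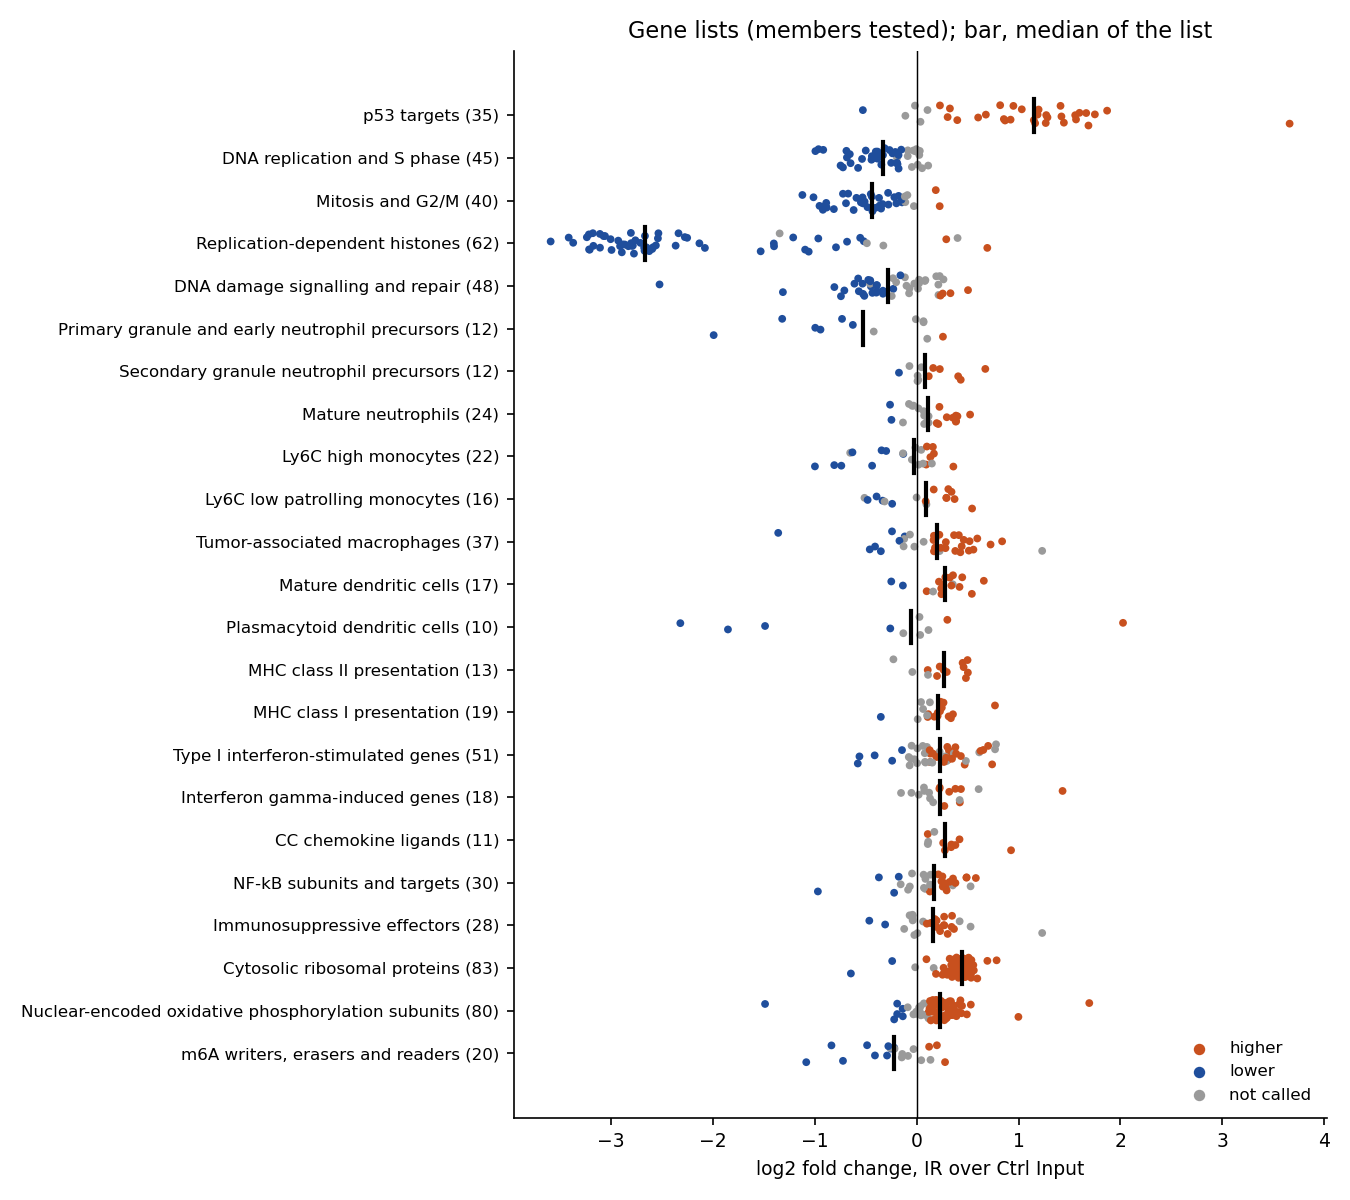
Log2 fold change of each tested member of 23 gene lists, with the number tested in brackets and a bar at the list's median. Orange points were called higher, blue lower and grey not called. The p53 targets have a median of 1.15 and the replication-dependent histones -2.67, and the other medians shown lie between -0.52 and 0.44.

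Neutrophils are made from precursors that first fill primary granules with Mpo, Elane, Prtn3 and Ctsg, and later secondary granules with Ltf, Camp and Ngp. The genes of the earliest stage were lower in the IR libraries. Mpo, encoding myeloperoxidase (ENSMUSG00000009350, chromosome 11, 87793581 to 87804413 on the plus strand), went from 292, 296 and 299 CPM to 74.4, 75.1 and 74.0 CPM. The groups were 3.97-fold apart with no overlap (log2 -1.99, SE 0.035, edgeR adjusted p = 4.4e-25). The serine proteases Ctsg (59.8, 63.5 and 61.2 CPM against 25.4, 25.5 and 23.1 CPM, log2 -1.32, SE 0.057), Elane (log2 -0.99, SE 0.041) and Prtn3 (log2 -0.94, SE 0.035) fell as well. Ms4a3, a marker of granulocyte and monocyte progenitors, fell by 0.73 (SE 0.057), Gfi1, a repressor needed for granulopoiesis, by 0.62 (SE 0.074) and Myb, a progenitor transcription factor, by 0.77 (SE 0.058). Of the 12 genes of this list, 6 were lower and 1, Cd63, was higher (log2 0.26), or 2 without Ctrl library 1, with a median of -0.52. Coding genes of the same length bins had a median of 0.13. Cebpe, which governs the step to secondary granules, and Fcnb were not called.

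Later neutrophil genes did not follow. Of 12 secondary granule genes, 6 were higher and 1 lower, with a median of 0.08. Lcn2, encoding lipocalin, rose from 1172, 1245 and 1208 CPM to 1574, 1642 and 1594 CPM (log2 0.41, SE 0.027), and Mmp8, a collagenase, by 0.43 (SE 0.037). Ltf, encoding lactoferrin, was at 2503 to 2535 CPM in the Ctrl and 2512 to 2564 CPM in the IR libraries and did not pass the test. Of 24 genes of mature neutrophils, 10 were higher and 2 lower, with 1 lower without Ctrl library 3 and 1 without IR library 3. S100a9, a chain of calprotectin, rose from 3370, 3703 and 3605 CPM to 4486, 4846 and 4768 CPM (log2 0.40, SE 0.030) and S100a8 by 0.39 (SE 0.046). Csf3r, the G-CSF receptor, rose by 0.21 (SE 0.031), whereas Cxcr2 (log2 0.09) and Ly6g (0.12) were not called and Mmp9 fell by 0.25 (SE 0.039). The median of mature neutrophil genes was 0.11, below the 0.19 of coding genes of the same length bins.

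Of 10 tested markers of eosinophils, basophils and mast cells, 5 were lower, 1 was higher and 4 were not called, and the eosinophil granule genes Epx and Prg2 fell most. Epx, encoding eosinophil peroxidase, went from 33.7, 31.4 and 32.4 CPM to 7.0, 6.59 and 5.31 CPM (log2 -2.37, SE 0.093), and Prg2, encoding major basic protein, from 25.6, 22.5 and 24.1 CPM to 6.34, 6.88 and 5.67 CPM (log2 -1.94, SE 0.097). Siglecf, a surface marker of eosinophils, was at 20.1 to 24.2 CPM against 17.7 to 21.5 CPM and was not called, and Ear6, a ribonuclease of eosinophils, rose by 0.86 (SE 0.091). Of the basophil and mast cell genes, Ms4a2 and Cpa3 each fell by 0.36 and Mcpt8 (55.0 to 61.1 against 51.8 to 56.5 CPM) was not called.

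Monocytes leave the marrow as Ly6C-high cells and can become Ly6C-low patrolling cells, macrophages or dendritic cells. Of 22 genes of Ly6C-high monocytes, 6 were higher, 3 of them without IR library 2, and 8 were lower. Ly6c2 itself was at 193, 197 and 198 CPM and then at 199, 212 and 216 CPM (log2 0.09, SE 0.036, edgeR adjusted p = 0.033), a call lost without any single library other than IR library 1. Ccr2, the receptor that draws monocytes into tissue, rose by 0.14 (SE 0.036). Fn1, encoding fibronectin, fell from 34.3, 32.5 and 32.3 CPM to 17.0, 16.4 and 16.2 CPM (log2 -1.0, SE 0.069), Plac8 by 0.81 (SE 0.058) and Thbs1, encoding thrombospondin, from 406, 406 and 401 CPM to 243, 237 and 246 CPM (log2 -0.74, SE 0.031). Of 16 genes of Ly6C-low cells, 8 were higher, 5 of them without Ctrl library 3, and 4 lower, with Cd300ld at 0.54 (SE 0.064), Pglyrp1 at 0.29 (SE 0.031), Itgal at -0.48 (SE 0.043) and Cx3cr1 not called (log2 0.00).

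Of 37 tested genes listed for tumor-associated macrophages, 23 were higher and 7 lower, with a median of 0.20. Because C1qa and Arg1 of this list were low and Retnla had no count, its values describe these genes and not a macrophage population. Their summed level went from 6128, 6207 and 6209 CPM to 7369, 7442 and 7378 CPM, of which Lpl, encoding lipoprotein lipase, gave 1329 to 1352 CPM and then 1546 to 1599 CPM. Ctsd, the lysosomal protease cathepsin D, rose from 622, 660 and 649 CPM to 912, 933 and 924 CPM (log2 0.52, SE 0.029). Lgals3, encoding galectin 3, rose from 875, 885 and 899 CPM to 1201, 1212 and 1201 CPM (log2 0.44, SE 0.026), and Maf, a macrophage transcription factor, by 0.73 (SE 0.081). Aif1 (0.56), Mertk (0.51), an efferocytosis receptor, and C1qb (0.46) rose from lower levels. Mrc1, encoding the mannose receptor, fell from 127, 125 and 123 CPM to 91.7, 91.4 and 89.9 CPM (log2 -0.46, SE 0.037), Axl by 0.41 (SE 0.036) and Vcam1 by 1.36 (SE 0.15). Also called lower were Adgre1 (log2 -0.24, SE 0.067) and Apoe (log2 -0.35, SE 0.086), the latter with overlapping groups. Csf1r, the M-CSF receptor, fell by 0.12 (SE 0.034), a call lost without IR library 3.

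**Figure D4:**
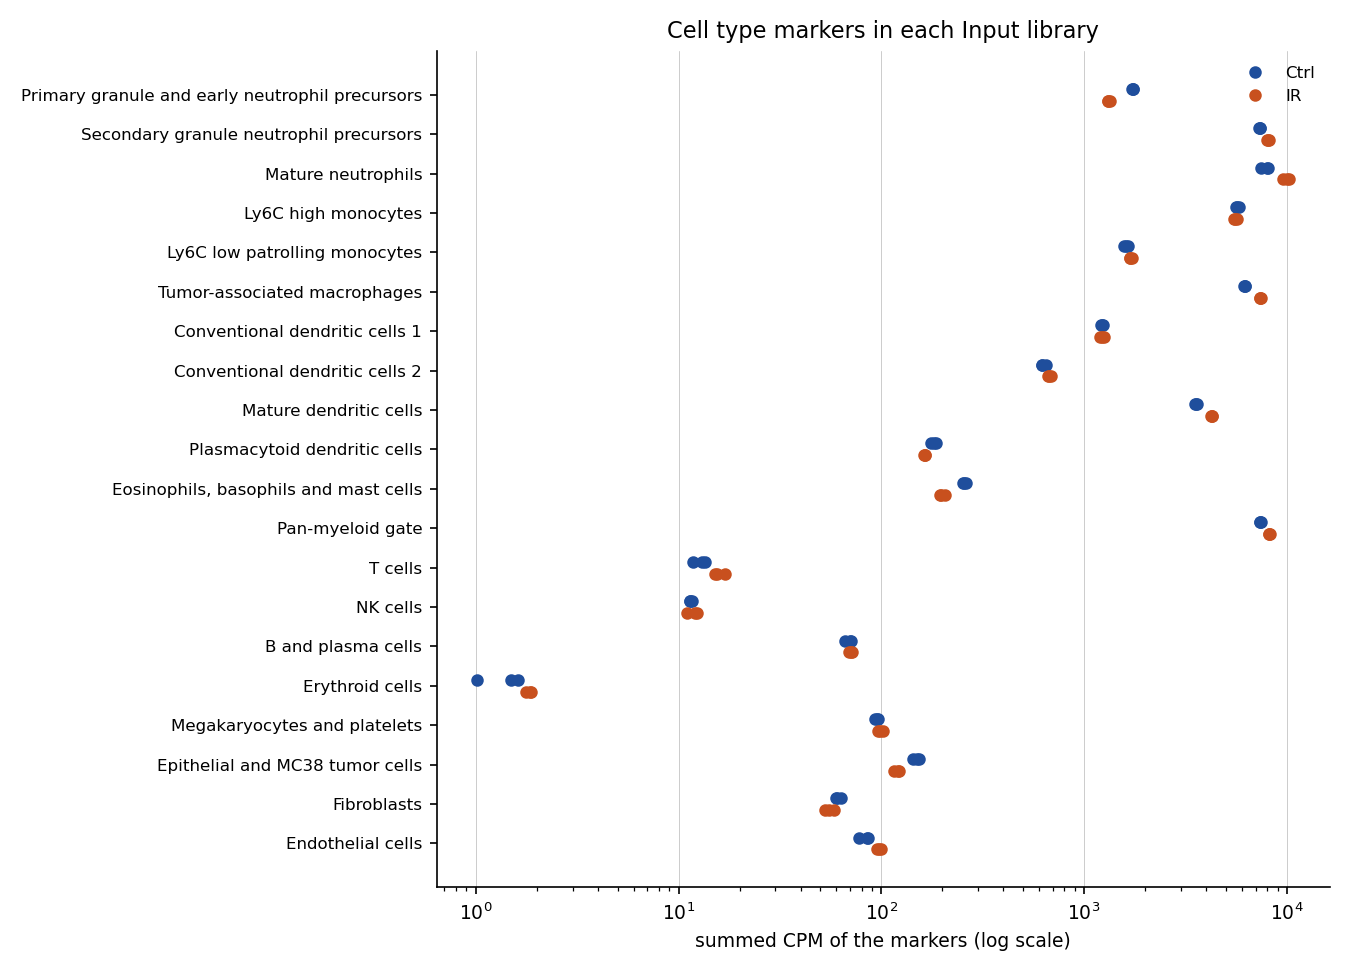
Summed CPM of the markers of each cell type in each Input library, on a log axis, with Ctrl in blue and IR in orange. The sums of early neutrophil precursor and of eosinophil, basophil and mast cell markers lie lower in the IR libraries. Those of macrophage, mature dendritic cell and mature neutrophil markers lie higher. The macrophage sum includes the abundant Lpl, Lgals3 and Ctsd. Of its 37 tested members 23 were higher and 7, among them Mrc1, Axl and Adgre1, were lower. Most of the mature neutrophil rise, from 7841 to 9942 CPM on average, came from S100a9 (3559 to 4700 CPM) and S100a8 (2126 to 2783 CPM). Of the 24 tested members of that list, 12 were not called. T cell, NK cell and erythroid markers sum to at most 16.9 CPM.

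Most genes of antigen presentation rose modestly. Of 13 genes of MHC class II presentation, 10 were higher and none lower, with a median of 0.27 beside 0.08 for coding genes of the same length bins. Cd74, the invariant chain, went from 3355, 3394 and 3348 CPM to 4639, 4821 and 4664 CPM (log2 0.48, SE 0.022, edgeR adjusted p = 1.3e-15). H2-Ab1 rose from 837, 844 and 841 CPM to 1190, 1203 and 1174 CPM (log2 0.50, SE 0.026), H2-Aa by 0.50 (SE 0.028) and Ciita, the master regulator of the class, by 0.27 (SE 0.035). Of 19 class I genes, 13 were higher and 1, Erap1, lower. Tap1, the peptide transporter, rose most, from 129, 134 and 129 CPM to 219, 227 and 221 CPM (log2 0.77, SE 0.035), and its partner Tap2 by 0.21 (SE 0.040). B2m rose by 0.31 (SE 0.030), H2-K1 by 0.24 (SE 0.030) and H2-D1 by 0.11 (SE 0.029), and Nlrc5, the class I regulator, was not called (log2 0.06). Tap1 and Psmb9 overlap on opposite strands.

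Dendritic cells were followed in 4 lists. Of 17 genes of mature dendritic cells, 13 were higher and 2 lower, with a median of 0.28, and the lower count was 1 without any single library other than IR library 2. The costimulatory genes Cd80 (94.0, 96.6 and 93.1 CPM against 134, 133 and 146 CPM, log2 0.54, SE 0.041), Cd86 (0.45, SE 0.037), Cd40 (0.36, SE 0.070) and Cd83 (0.33, SE 0.036) all rose, as did Ccr7, the receptor that guides them to lymph nodes, from 171, 173 and 168 CPM to 206, 200 and 200 CPM (log2 0.24, SE 0.034). Of 12 genes of conventional type 1 cells, 3 were higher and 1 lower, or 2 lower without Ctrl library 2. Wdfy4, needed for cross-presentation, fell from 182, 185 and 184 CPM to 108, 118 and 112 CPM (log2 -0.70, SE 0.037), and Irf8 was at 125 to 136 CPM in all libraries and was not called. Of 12 genes of type 2 cells, 5 were higher, led by Clec10a (0.55, SE 0.057), and 4 lower, among them Irf4 (-0.30, SE 0.053). The lower count was 2 without Ctrl library 3 and 2 without IR library 3. Of 10 plasmacytoid genes, 4 were lower and 2 higher. Siglech, their surface lectin, went from 19.2, 15.6 and 18.5 CPM to 5.03, 5.35 and 4.41 CPM (log2 -1.85, SE 0.11), and the homing receptor Ccr9 from 5.97, 4.41 and 4.97 CPM to 0.641, 0.821 and 1.59 CPM (log2 -2.32, SE 0.25). Tcf4, the plasmacytoid master regulator, was at 44.5 to 49.7 CPM against 42.5 to 42.7 CPM and was not called, and Cd300c rose by 2.02 (SE 0.20).

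Interferons are secreted alarm signals whose targets restrict viruses and raise antigen presentation. The genes of the interferons themselves were nearly silent, with no count for Ifna4 or Ifnl3, at most 0.106 CPM for Ifnb1 and at most 0.0265 CPM for Ifng. Of 51 type I interferon-stimulated genes, 21 were higher and 5 lower, with a median of 0.23. Mx1, an antiviral GTPase, rose from 230, 246 and 240 CPM to 391, 412 and 395 CPM (log2 0.74, SE 0.034, edgeR adjusted p = 8.3e-16). Ifi27l2a (0.70, SE 0.068), Rsad2 (0.65, SE 0.17), encoding viperin, and Mx2 (0.63, SE 0.13) rose from lower levels. Isg15, a classic member, was at 1.14 to 1.31 CPM against 1.80 to 1.95 CPM and did not pass the test (log2 0.61, SE 0.27, edgeR adjusted p = 0.061). Irf7 (0.23) was not called either, and Ifit2 (-0.58, SE 0.15) and Ifih1 (-0.41, SE 0.11) fell. A pair of GAAA with 2 bases between, the core of the interferon response element, was in a window of 18 of the 38 genes of this list that had one (47.4%), beside 3.83% of all tested coding genes. Of 18 interferon gamma-induced genes, 8 were higher and none lower, among them Aim2, a DNA sensor (0.44, SE 0.044), Socs1 (0.38, SE 0.049) and Cd274, encoding PD-L1, which went from 122, 122 and 120 CPM to 145, 146 and 149 CPM (log2 0.27, SE 0.036).

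Chemokines attract leukocytes. Of 11 tested CC ligands, 8 were higher and none lower, with a median of 0.28 beside 0.19 for coding genes of the same length bins. Ccl17, a ligand of CCR4, rose from 419, 444 and 440 CPM to 585, 592 and 568 CPM (log2 0.42, SE 0.031) and Ccl22, its relative, from 872, 874 and 889 CPM to 1041, 1048 and 1069 CPM (log2 0.26, SE 0.026). Ccl5, which draws T cells and monocytes, rose from 194, 200 and 201 CPM to 240, 262 and 254 CPM (log2 0.34, SE 0.036). Ccl2, the main ligand of CCR2, was at 9.09, 10.7 and 9.75 CPM against 11.8, 10.6 and 9.48 CPM, which overlapped (log2 0.11, SE 0.11, edgeR adjusted p = 0.43). Of 9 CXC and CX3C ligands, only Cxcl16 (166, 163 and 172 CPM against 217, 234 and 218 CPM, log2 0.41, SE 0.037) and Pf4 (0.37, SE 0.070) were called, both higher, and Cxcl10 was at 0.903 to 1.94 CPM in all libraries. Of 11 chemokine receptors, 6 were higher, led by Ccrl2 (0.58) and Ccr1 (0.31), and only Ccr9 was lower.

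NF-kB drives inflammatory genes and is switched off by its own target Nfkbia. Of 30 subunits and targets, 14 were higher and 4 lower. Icam1, an adhesion molecule, rose from 190, 183 and 192 CPM to 277, 279 and 288 CPM (log2 0.58, SE 0.033), and Nfkbia from 429, 411 and 421 CPM to 528, 500 and 518 CPM (log2 0.29, SE 0.031). Of the subunits, Relb rose by 0.24 (SE 0.043), Rel fell by 0.17 (SE 0.040), and Rela, Nfkb1 and Nfkb2 were not called. Il1b rose by 0.30 (SE 0.083), Tnf did not pass the test (log2 0.07, SE 0.042) and Il6 fell by 0.97 (SE 0.25) at 1.38 to 5.21 CPM, a call lost without Ctrl library 1.

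Of 28 tested immunosuppressive effectors, 13 were higher and 2 lower, with a median of 0.16. Ncf1, a subunit of the phagocyte oxidase, rose by 0.37 (SE 0.025). Arg1 was at 0.320, 0.415 and 0.0742 CPM against 0.197, 0.874 and 0.830 CPM, overlapping and not called, and Arg2 rose by 0.34 (SE 0.10) from 10.6 to 12.6 CPM up to 13 to 16.9 CPM, a call lost without Ctrl library 2 and without IR library 2. Il10 had 0, 0 and 0 counts in the Ctrl and 0, 0 and 1 count in the IR libraries, which is under the limit of 3 counts for a count of 0, and Nos2 was under the filter. Tgfb1 fell from 287, 299 and 298 CPM to 238, 235 and 242 CPM (log2 -0.31, SE 0.032).

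Among surface receptors of phagocytes, 9 of 15 complement and Fc receptor genes were higher and 2 lower. Besides Itgam, Fcgr3 rose from 357, 366 and 362 CPM to 447, 449 and 445 CPM (log2 0.30, SE 0.029) and Fcer1g, the shared signalling chain, by 0.32 (SE 0.032). C3, the central complement protein, fell from 604, 608 and 589 CPM to 466, 452 and 451 CPM (log2 -0.40, SE 0.029), and Fcgr1 by 0.44 (SE 0.056). Of 28 lysosomal genes, 19 were higher and 4 lower, from 0.52 for Ctsd to -0.22 for Ctsc, and the lower count was 1 without Ctrl library 3, 1 without IR library 3 and 2 without IR library 1. Of 20 genes of cholesterol synthesis and efflux, 11 were lower and 3 higher. The synthesis enzymes Idi1 (-0.62) and Sqle (-0.56) and the efflux pump Abca1 (-0.83) were among those that fell. The 3 that rose were the efflux pump Abcg1 (0.26), Mylip (0.30) and the synthesis enzyme Fdft1 (0.20). On average in the Ctrl libraries Abcg1 was at 137 CPM and Abca1 at 8.73 CPM. Of 30 glycolysis and hypoxia genes, 12 were higher, 7 of them without Ctrl library 3 and 7 without IR library 3, and 10 lower, among them Hif1a (-0.55, SE 0.061). Of 24 myeloid transcription factors, 13 were higher, 8 without Ctrl library 2, and 6 lower. Spi1, encoding PU.1, moved by only 0.09 (SE 0.031), a call lost without Ctrl library 2 or 3 or IR library 1 or 3. Id2 moved by 0.38 (SE 0.036) and Runx1 by -0.36 (SE 0.038).

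Among coding genes the 5 largest rises in CPM were those of the ribosomal genes Rpsa and Rplp2, the ferritin genes Ftl1 and Fth1, and Cd74. Rplp2, an acidic ribosomal stalk protein, went from 3337, 3267 and 3236 CPM to 4859, 4828 and 4834 CPM (log2 0.56, SE 0.022), and Fth1, the ferritin heavy chain, from 4061, 3983 and 3982 CPM to 5303, 5277 and 5302 CPM (log2 0.40, SE 0.021). Of 83 tested cytosolic ribosomal protein genes, 79 were higher and 2 lower, with 1 lower without Ctrl library 3 and 1 without IR library 3. Together they took 89736 to 91796 CPM in the Ctrl and 120216 to 121965 CPM in the IR libraries. The most changed was Rps27l, a ribosomal protein paralog that is also a p53 target, at 122, 119 and 124 CPM against 204, 207 and 217 CPM (log2 0.79, SE 0.036). Of 80 nuclear-encoded subunits of oxidative phosphorylation, 60 were higher and 6 lower, with a median of 0.23. Of 13 mitochondrially encoded proteins, 8 were higher, for example mt-Nd4 (0.38, SE 0.025), and 2, mt-Co1 (-0.18) and mt-Nd6 (-0.90), lower. Of 38 proteasome subunits, 14 were higher and 3 lower, with a median of 0.05.

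These abundant genes are short, and transcript length moved with the difference between the groups. The 10590 coding genes whose mean count reached 100 were divided by exon length into 10 bins of 1059 genes, and the median log2 fold change went from 0.19 in the bin of the shortest (237 to 1866 bases) to -0.18 in the longest (10064 to 123179 bases). In the bin of the shortest genes 50.9% were called higher and 8.5% lower, and in the longest 16.3% were higher and 54.8% lower. Spearman's rho across these genes was -0.30, as a description, since the genes share their libraries. Each list member was also set against the median of coding genes in its own length bin, and the median of these differences was taken. It was 0.31 for the ribosomal proteins, 0.10 for the oxidative phosphorylation subunits and 0.00 for the proteasome subunits. The plain medians of the first pair of lists were 0.44 and 0.23, each beside 0.19 for coding genes of the same length bins. The median difference was 1.07 for the p53 targets, -0.41 for the mitosis genes and -0.63 for the primary granule genes. For the macrophage genes and the type I interferon-stimulated genes it was 0.21 each, and for the MHC class II genes 0.18. The part of length in any list's difference was not tested.

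**Figure D5:**
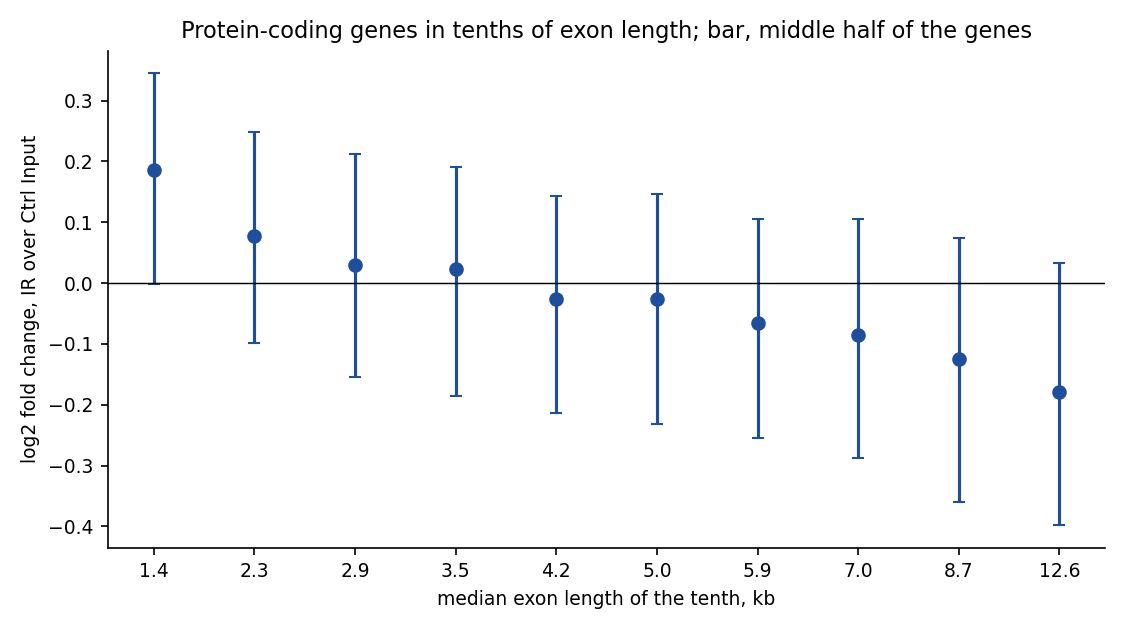
Log2 fold change of IR over Ctrl in 10 bins of exon length, for 10590 coding genes. Points are medians of 1059 genes and bars run from the 25th to the 75th percentile, and the horizontal axis gives each bin's median exon length in kb. The medians fall from 0.19 in the shortest to -0.18 in the longest bin, and the bars of neighbouring bins overlap.

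Among coding genes outside the Hist genes, the 5 largest falls in CPM were those of the cytoskeletal genes Myh9, Plec, Flna and Actb and of Mki67. Myh9, the heavy chain of nonmuscle myosin, went from 1777, 1675 and 1688 CPM to 1002, 972 and 984 CPM (log2 -0.80, SE 0.028), Plec, encoding plectin, from 942, 883 and 895 CPM to 526, 510 and 524 CPM (log2 -0.80, SE 0.030), and Flna, encoding filamin, by 0.34 (SE 0.026). All have long transcripts. Actb fell by 0.05 (SE 0.020, edgeR adjusted p = 0.049), a call that was lost with DESeq2, with its size factors, with 4 other settings and without any single library other than Ctrl library 1. Of the 10 largest falls in log2, Slc8a1, a sodium-calcium exchanger, Zfp971 and Gm14548 are not described above, and fell by 2.30, 1.88 and 1.79. Lars2, a mitochondrial leucyl-tRNA synthetase, went from 89.4, 115 and 109 CPM to 20.4, 21 and 21.6 CPM (log2 -2.32, SE 0.069), and its spread among the Ctrl libraries was wide. It fell with the mitochondrial ribosomal RNA (mt-Rnr2, log2 -1.77) and with Gm23935, annotated as a miRNA gene, which alone held 3.77 to 3.98% of the Ctrl and 0.546 to 0.587% of the IR counts. Whether these share reads was not tested.

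N6-methyladenosine (m6A) is written on mRNA by METTL3, METTL14, WTAP and their cofactors, erased by ALKBH5 and FTO, and read by YTH proteins such as YTHDF2, which speeds decay. Of 20 genes of this system, 9 were lower and 3 higher, with a median of -0.22 beside -0.09 for coding genes of the same length bins. Ythdf2 (ENSMUSG00000040025, chromosome 4, 132184912 to 132212303 on the minus strand) was at 58.9, 58.2 and 58.9 CPM in the Ctrl and at 45.8, 49.2 and 53 CPM in the IR libraries (log2 -0.25, SE 0.052, edgeR adjusted p = 0.0003). The IR values spread more than the Ctrl values but did not reach them. The other readers Ythdf1 (-0.41, SE 0.066), Ythdf3 (-0.22, SE 0.050) and Ythdc2 (-0.72, SE 0.12) fell and Ythdc1 rose (0.28, SE 0.035). Of the writers, Mettl3 and Mettl14 were not called (log2 -0.08 and -0.15), Wtap fell by 0.29 (SE 0.049), and Rbm15, which guides the complex, fell from 32.4, 32.2 and 33.1 CPM to 15.5, 17.1 and 13.7 CPM (log2 -1.08, SE 0.078). Of the erasers, Alkbh5 fell from 63.3, 66.7 and 61.6 CPM to 34, 36 and 37.4 CPM (log2 -0.83, SE 0.053) and Fto was not called (log2 -0.03).

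Markers of other lineages were low in both groups. T cell markers summed to 12.7 CPM ± 0.909 (SD, n = 3) in the Ctrl and 15.8 ± 0.954 in the IR libraries, with Icos the highest at 6.32 to 11.9 CPM and Cd3e and Cd8b1 under the filter. Of 12 NK cell markers, 10 were under the filter. The hemoglobin genes did not exceed 1.14 CPM. Of 13 epithelial and tumor cell markers, 7 were under the filter, among them Krt8, Krt18 and Krt19, and Cdh1 alone stood high, falling from 124, 116 and 121 CPM to 82.5, 86.3 and 85.3 CPM (log2 -0.51, SE 0.040). The fibroblast genes Col1a2, Col3a1 and Dcn were under the filter, with Thy1 highest at 39.6 to 52.8 CPM. Vwf was the highest endothelial marker at 47.5 to 73.1 CPM and Itga2b the highest megakaryocyte marker at 50.5 to 54.8 CPM. B cell markers summed to 68.8 CPM ± 2.28 against 70.4 ± 1.20, of which Ighm gave 29.5 to 41.2 CPM. Their part in the results was not tested.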

How the data were processed

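RNA from CD11b+ myeloid cells of MC38 tumors of Ythdf2 f/f mice was sequenced as the Input of a YTHDF2 immunoprecipitation, with a stranded total RNA kit. The labels name mRNA isolation and the study's methods total RNA for the Input. The growth note names tumors or blood of tumor-bearing mice, the study's methods tumors. The authors trimmed reads with Trimmomatic 0.39, aligned them with HISAT and counted them with HTSeq on GENCODE genes of mm10, and deposited raw counts per gene. The strand setting of the counting is not given in the sources used here. Here the HTSeq summary rows were left out (no-feature reads were 24.7 to 27.0% of uniquely aligned reads). Of 54446 gene IDs, 99.93% matched GENCODE M21 with or without their version, which gave symbols, types and exon lengths. Genes reaching 10 counts in 3 or more of the 6 libraries were tested with edgeR 4.0.16 (R 4.3.3), TMM scaling and quasi-likelihood tests of IR against Ctrl, with no covariate, adjusted by Benjamini-Hochberg over 16914 genes. In counts simulated with the spread estimated from these libraries, 100 genes were changed 2-fold and 100 were changed 4-fold, none of them near the filter. The fit recovered 93% of the 2-fold and 100% of the 4-fold changes, and 3.98% of its calls were false. Far more genes were called in the data, most at under 2-fold, so these rates do not carry over to them. Replicates differed by more than counting noise, so none were counted as duplicates. Alternatives were DESeq2 1.42.0, its size factors, library size alone, other filters, coding genes alone, thinning, a 2-fold minimum, a replicate block and leaving out each library.

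The gene lists, the named genes and the comparison were chosen with earlier results of these data known. Genes were named by rule: Cdkn1a, Mdm2, Mpo and Ythdf2; the 10 largest rises and falls in log2 fold change and the 5 largest in CPM among called coding genes whose mean count reached 100 and whose groups did not overlap; in each list up to 6 called members in each direction with that mean, and members that define the list; and genes the study measured otherwise. Members named with low counts or as not called were added after their values were seen. Symbols were matched to RefSeq promoter windows for 10113 of 12782 coding gene symbols. Results for a few genes are not reported here.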

Additional observations from a re-analysis of the deposited data

How the results depend on the processing

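With the number of tested genes between 12784 and 31531, the counts were 3063 to 3753 genes higher and 3379 to 4278 lower in every alternative except a 2-fold minimum, which left 344 higher and 674 lower. DESeq2 called 3494 and 3887. Scaling moved the median of all genes by less than 0.02 on the log2 scale, and library size alone gave 43.7% of calls as higher, beside 46.8%. Leaving out each library in turn gave 3063 to 3365 genes higher and 3539 to 3772 lower. Of 324 called genes that are named by the rule, 44 lost the call without some library and 17 under another setting (Actb and Ly6c2 among them), and none turned direction while called. Of the counts of list members called higher or lower, the 2-fold minimum moved 76 by over 1.5 times and 16 by less, by its construction, the replicate block moved 4, and the other settings that kept all libraries 1 to 6 each. Leaving out single libraries moved 43 such counts and left 509 within 1.5 times.

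Replicate numbers were not taken to pair the libraries in the main test, and whether they do was not settled. The correlation of deviations between same-numbered Ctrl and IR libraries was 0.038, 0.019 and 0.012. With a replicate block the test called 3753 genes higher and 4177 lower. Every library correlated best with its own number, but for Ctrl library 3 that value was close to its 0.0107 with IR library 2. Values this small cannot decide whether the libraries are paired. Depth limited what could be called for genes near the filter, such as Isg15 and Arg1, and a gene at 0 counts could be up to 0.0871 CPM, the level of 3 counts in the smallest library, by counting error only.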

Other observations

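The genes in this section were picked after their values were seen, so they stand for no group. Myc, a driver of growth, fell from 43.7, 45.2 and 43.9 CPM to 21.2, 19 and 20.4 CPM (log2 -1.13, SE 0.063, edgeR adjusted p = 5e-14). Of genes whose products act in the nucleolus, Dkc1, the pseudouridine synthase, fell from 97.1, 97.2 and 94.4 CPM to 43.5, 44.0 and 43.9 CPM (log2 -1.14, SE 0.044), Mdn1 by 1.12, Nolc1 by 0.94, Nop58 by 0.77, Gnl3 by 0.77 and Nop56 by 0.66 on the log2 scale. Npm1, another nucleolar protein, rose by 0.28 (SE 0.030), and Ncl fell by 0.35 (SE 0.035). Slc7a1, a transporter of arginine, was at a log2 fold change of -1.03 (SE 0.054), Slc7a5, a transporter of large neutral amino acids, at -0.83 (SE 0.042), Ctps, the CTP synthase, at -1.25 (SE 0.10) and Mthfd1l, an enzyme of mitochondrial folate metabolism, at -1.13 (SE 0.087).

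Kank3 went from 19.6, 18 and 19.7 CPM to 70.8, 72.7 and 76.9 CPM (log2 1.95, SE 0.057) and Ptp4a3, a phosphatase, from 61.3, 68.9 and 65.7 CPM to 202, 213 and 215 CPM (log2 1.68, SE 0.043). Kank3 overlaps Rps28 on the opposite strand. Among B cell genes, Pax5 rose by 0.92 (SE 0.14), whereas Cd79a fell by 0.92 (SE 0.21) and Cd79b by 0.57 (SE 0.14). Of genes with long transcripts, Kmt2d, a histone methyltransferase, fell from 324, 314 and 309 CPM to 158, 153 and 148 CPM (log2 -1.05, SE 0.035), Dst by 1.09 (SE 0.046), Syne1 by 0.84 (SE 0.031) and Macf1 by 0.78 (SE 0.033) on the log2 scale. The nuclear RNA Malat1 rose from 23400, 21286 and 21310 CPM to 31234, 29452 and 30362 CPM (log2 0.46, SE 0.026).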
